A study of Mus musculus with 32 samples.

Results

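The Trim genes encode the tripartite motif proteins, a family of ubiquitin ligases and related regulators. They were taken as every gene whose name starts with Trim and a digit, without pseudogene names, and that both expression tables list. This gave 67 of the 46078 genes. All 67 were found in the GENCODE M21 annotation of mouse genome mm10, each as a protein-coding gene. Their RNA was followed over 32 sequenced libraries from mouse embryos, late 2-cell ones collected 28 hours and late 1-cell ones 12 hours after fertilization. The mutated genes of the study are Dppa2 and Dppa4, which encode SAP-domain nuclear proteins of the early embryo. In the names of the groups m is the maternal and z the zygotic allele, so m-z+ embryos lacked the maternal supply, m-z- embryos lacked both, and m+z+ embryos were the controls. Total RNA was sequenced in 2 libraries each of m-z+ and m+z+ embryos, at both stages, in a Dppa2 arm on a mixed B6/DBA background and a Dppa4 arm on B6. PolyA RNA was sequenced in 3 libraries each of m-z- and m-z+ 2-cell embryos of both arms, and in 2 libraries each of WT 2-cell and WT 1-cell embryos on B6, which the descriptions name as controls of Dppa4. The polyA libraries were made from single embryos, per the labels' descriptions. The mixed background belonged to the Dppa2 arm alone, so background and arm cannot be told apart, and no polyA library was made from Dppa2 control embryos among those analysed here.

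A tripartite motif protein starts with a RING finger that recruits a ubiquitin-conjugating enzyme, followed by B-box zinc fingers and a coiled coil through which the proteins pair. The part after the coiled coil differs between classes: a PRY-SPRY domain that binds target proteins, a PHD finger with a bromodomain that reads histones, NHL repeats that bind RNA, or a COS box that binds microtubules. The family is best known for antiviral defence, and in early embryos for Trim28, the co-repressor that keeps imprinted genes and retroelements silent through KRAB zinc finger proteins and whose loss from the egg is lethal to the embryo.

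The 3 copies of Trim43, PRY-SPRY genes of the preimplantation embryo, had the largest stage changes of the family on the log2(FPKM + 1) scale used here, so their sequence is shown. With 0.1 FPKM added in place of 1, Trim43a and Trim43b still led in WT embryos, at 9.36 and 9.57, while Trim25 (6.04), Trim7 (5.37) and Trim38 (-5.24) exceeded the 4.87 of Trim43c in size. They lie on chromosome 9 of mm10, Trim43a at chr9:88580891-88588819 on the plus strand, Trim43c at chr9:88839164-88848190 on the plus strand and Trim43b at chr9:89084624-89092835 on the minus strand. Their coding sequences were 98.0% identical between Trim43a and Trim43b, 97.6% between Trim43b and Trim43c and 96.6% between Trim43a and Trim43c. The first 120 coding bases, from the GENCODE M21 transcripts on mm10, show how alike the copies are, and capitals mark the 4 positions at which the copies differ.
Trim43a coding start: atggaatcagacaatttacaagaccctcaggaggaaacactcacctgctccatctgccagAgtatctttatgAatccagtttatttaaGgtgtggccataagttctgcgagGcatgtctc
Trim43b coding start: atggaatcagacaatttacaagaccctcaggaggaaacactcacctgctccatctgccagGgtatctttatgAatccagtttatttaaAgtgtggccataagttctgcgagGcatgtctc
Trim43c coding start: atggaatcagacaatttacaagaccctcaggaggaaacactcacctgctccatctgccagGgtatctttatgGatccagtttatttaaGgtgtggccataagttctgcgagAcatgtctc
Of the 50-base windows in their exons, 45.79% in Trim43a, 47.72% in Trim43b and 42.08% in Trim43c also occur in another gene, so the division of reads among the copies depends on the authors' counting and is uncertain. Trim43c also overlaps 768 exon bases of 9330159M07Rik on the opposite strand, which the unstranded polyA libraries cannot separate from it.

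Of the 67 Trim genes, 15 reached 1 FPKM in all 32 libraries: Trim13, Trim23, Trim24, Trim26, Trim28, Trim33, Trim36, Trim37, Trim39, Trim41, Trim44, Trim59, Trim60, Trim71 and Trim75. In contrast, 17 stayed below 1 FPKM in every library, among them Trim21, the cytosolic antibody receptor, Trim66, the fourth PHD-bromodomain member, and the muscle gene Trim55. Trim29, Trim30c, Trim42 and Trim58 were listed at 0 throughout. FPKM, fragment numbers scaled by transcript length and library size, are relative to each library, and the depth behind them is unknown. Trim21 was above 0 in 2 libraries only, with 0.0688 and 0.201 FPKM in the Dppa4 m+z+ 1-cell and 2-cell total RNA libraries that carry replicate number 2. Trim66 did not exceed 0.635 FPKM, a value of a Dppa4 m-z+ 2-cell library.

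Testing was limited to genes that reached 1 FPKM in 2 or more libraries of a table, which kept 35 Trim genes for total RNA and 44 for polyA RNA, 34 of them shared, while 22 were tested in neither. In total RNA, 4 of the 35 passed this filter through 2-cell libraries alone and 2 through 1-cell libraries alone. In polyA RNA, where only 2 libraries are 1-cell, 20 of the 44 passed through 2-cell libraries alone and 1 through 1-cell libraries alone. Those kept by 2-cell libraries alone were Trim7, Trim8, Trim25 and Trim67 in total RNA and, among genes named with values, Trim6, Trim7, Trim8, Trim12a, Trim14, Trim25, Trim34a, Trim43a, Trim43b and Trim62 in polyA RNA, and those kept by 1-cell libraries alone were Trim15 and Trim31 in total RNA and Trim11 in polyA RNA. This filter favours genes that differ between the stages, so a stage call of a gene kept in this way adds nothing to its values. Such a gene need not differ between the groups compared, since the mutant libraries counted as well. Trim12a had 0.0198 and 0.011 FPKM in WT 2-cell polyA libraries, against 0.0333 and 0.0068 FPKM in WT 1-cell libraries. By class, 20 of 38 PRY-SPRY genes were tested in total RNA, 3 of 4 PHD-bromodomain genes, 3 of 5 NHL or filamin genes and 2 of 8 COS-box genes. Levels were low in the group of 10 neighbouring genes at chr7:104218793-104507849, which holds the relatives of the retrovirus restriction gene Trim5 together with the interferon-related Trim30 and Trim34 genes. There 3 genes stayed below 1 FPKM everywhere, and Trim6 alone reached 10 FPKM in any library. Trim34a, Trim34b, Trim5 and Trim12c share 33.04% to 56.76% of their 50-base windows with other genes, so their low values are uncertain as well.

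A total RNA library held 10706 to 13071 genes at 1 FPKM or more and a polyA library 10842 to 13916, and 24 to 35 Trim genes reached that level in a library. Replicates of a group correlated at r of 0.935 to 0.987 across genes for total RNA and 0.862 to 0.972 for polyA RNA. Dppa2 had 9.38 and 9.52 FPKM in Dppa2 m-z+ 1-cell libraries, against 32.3 and 32.7 FPKM in m+z+ libraries, and Dppa4 had 1.13 and 0 FPKM in Dppa4 m-z+ 1-cell libraries, against 4.37 and 6.92 FPKM in m+z+ libraries. At the 2-cell stage these groups overlapped, with 44.8 and 59.2 against 49.7 and 53.0 FPKM for Dppa2, and 25.5 and 20.3 against 30.1 and 17.6 FPKM for Dppa4. In the polyA libraries of Dppa4 m-z- embryos Dppa4 was at 0, 0 and 0.149 FPKM, against 125 to 155 FPKM in m-z+ embryos. In the libraries labelled Dppa2 m-z-, Dppa2 RNA had 155, 130 and 76.5 FPKM, against 92.4, 87.4 and 63.3 FPKM in Dppa2 m-z+ libraries. The level of Dppa2 therefore goes against that label unless the mutant allele leaves its RNA in place, and the part of the gene it removes is not given in the sources used here. The group is called by its label throughout.

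Between the 1-cell and the 2-cell stage the embryo degrades maternal RNA and starts its own transcription. Trim genes went both ways at this step, and so did the genes tested as a whole. In the m+z+ embryos of the Dppa2 arm 28 of 35 Trim genes passed in limma (adjusted p below 0.05 over all genes tested), 14 higher and 14 lower at the 2-cell stage, where 61.6% of all genes passed, 31.7% higher and 29.9% lower. In the Dppa4 arm 22 passed, 12 higher and 10 lower, where 49.1% of all genes passed, 24.9% higher and 24.2% lower. With FPKM rescaled to the same total in every library, the Dppa4 arm had 8 higher and 12 lower, and Trim28, Trim33, Trim44 and Trim62 no longer passed. In WT polyA RNA 15 of 44 passed, 8 higher and 7 lower, where 25.9% of all genes passed, 17.4% higher and 8.42% lower, and 9 passed without replicate 1 of the 1-cell or of the 2-cell libraries. The median change of the tested Trim genes was 0.10, -0.17 and 0.02 on the log2 scale in these 3 comparisons, beside 0.06, 0.04 and 0.23 over all genes. The 20 PRY-SPRY genes tested in total RNA went both ways between the stages, 7 higher and 10 lower in the Dppa2 arm and 7 higher and 7 lower in the Dppa4 arm.

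Across these and the m-z+ stage comparisons no Trim gene passed in both directions. Trim6, Trim25, Trim28, Trim33, Trim43a, Trim43b and Trim43c were higher at the 2-cell stage in all 5, and Trim11, Trim15, Trim27, Trim31 and Trim75 were lower in all 5. The calls of Trim11, Trim25, Trim27, Trim43a, Trim43b and Trim43c held in all 5 comparisons under every alternative fit and with every library left out in turn, while each of the other 6 lost its call in at least 1. Of those 6 with lasting calls, Trim27 and Trim43c were the ones kept by libraries of both stages in both tables. A p-value measures the spread between libraries, and the labels do not say whether these came from separate collections. The total RNA libraries may therefore be technical replicates, while the polyA ones were made from single embryos, per the descriptions. FPKM are shares of a library, so a transcript gained per embryo and a smaller total of other RNA cannot be told apart, nor can fewer expressing cells and less RNA per cell. Sums of 8 oocyte markers had 510 to 1246 FPKM in m+z+ 2-cell libraries, against 1967 to 2434 FPKM in m+z+ 1-cell libraries, and sums of 8 2-cell markers had 309 to 379 FPKM, against 17.8 to 26.0 FPKM. Cumulus and granulosa markers summed to 0.51 to 2.08 FPKM at the 2-cell stage, against 5.18 to 9.46 FPKM at the 1-cell stage. Most of the 1-cell sum was Cyp19a1, with 4.81 to 8.52 FPKM, the only cumulus and granulosa marker tested. Of these 8 markers, Amh and Inhba were among 5 at 0 in each group of 2-cell controls, and Foxl2 and Inhba were at 0 in both groups of 1-cell controls. Sperm markers summed to 0.29 to 3.86 FPKM at the 2-cell stage, against 8.57 to 14.1 FPKM at the 1-cell stage, and blood markers to 4.92 to 14.9 FPKM, against 0 for all 6. Nearly all of the 1-cell sperm sum was Prm2, with 8.57 to 13.8 FPKM, while Prm1, Tnp1, Tnp2 and Smcp were at 0 in every 1-cell control library. In WT polyA RNA blood markers summed to 64.0 to 147 FPKM at the 2-cell stage, against 0.10 to 0.94 FPKM at the 1-cell stage, and all 3 tested, Hba-a1, Hba-a2 and Cd74, were higher. The other blood markers were at or near 0 in WT 2-cell libraries, Hbb-bs and Ptprc at 0 in both and Alas2 at 0.174 and 0 FPKM. Hbb-bs and Ptprc were also at 0 in all total RNA libraries of 2-cell controls. The part of all these markers in the stage changes was not tested.

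**Figure D1:**
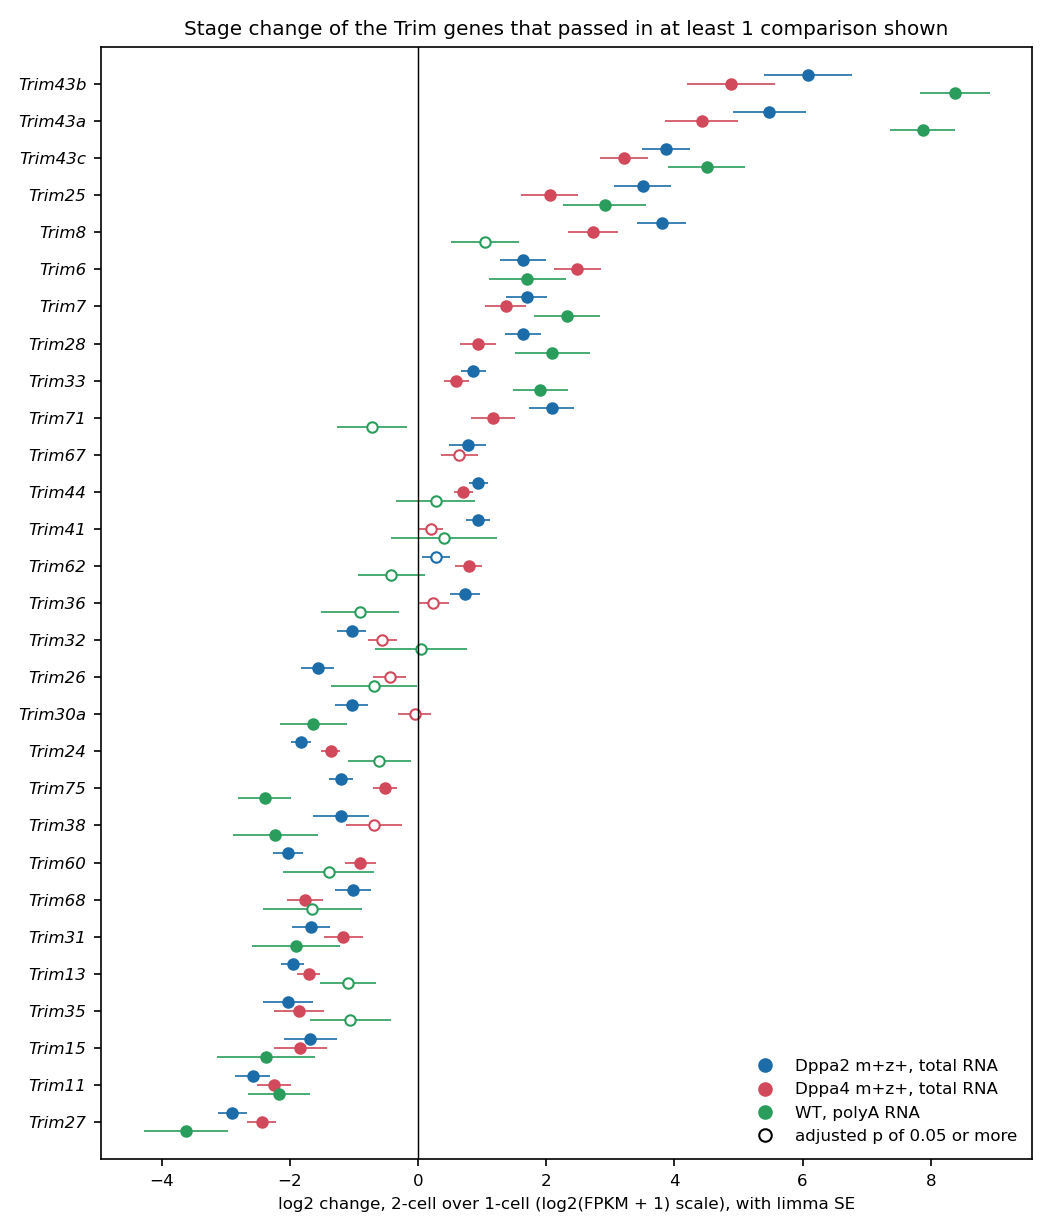
Log2 change of 2-cell over 1-cell embryos on the log2(FPKM + 1) scale, with limma standard errors, for the Trim genes that passed in at least 1 of 3 control comparisons. The Trim43 copies lie farthest to the right and Trim27 farthest to the left in WT polyA RNA, and open circles did not pass.

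Trim43a, Trim43b and Trim43c had at most 3.90 FPKM in 1-cell embryos and rose in every stage comparison. In polyA RNA the filter kept Trim43a and Trim43b through 2-cell libraries alone, and in total RNA all 3 copies reached 1 FPKM in libraries of both stages. In polyA RNA of WT embryos Trim43b had 592 and 501 FPKM in 2-cell embryos, against 0.936 and 0.398 FPKM in 1-cell embryos. Trim43a had 412 and 319 FPKM in 2-cell embryos, against 1.09 and 0.155 FPKM in 1-cell embryos. Trim43c had 90.5 and 83.0 FPKM in 2-cell embryos, against 3.29 and 2.49 FPKM in 1-cell embryos. The stages were far apart for each copy, with log2 changes of 8.37 ± 0.54, 7.87 ± 0.51 and 4.50 ± 0.60 (limma SE) for Trim43b, Trim43a and Trim43c, and limma adjusted p-values of 6.97e-09, 7.02e-09 and 2.41e-05. Trim43c was the lowest of the copies in every 2-cell library.

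In total RNA the copies gave the same picture at lower FPKM. Trim43b had 87.2 and 56.4 FPKM in Dppa2 m+z+ 2-cell libraries, against 0.101 and 0 FPKM at the 1-cell stage, a log2 change of 6.08 ± 0.69 (limma adjusted p = 8.85e-06). Trim43a had 55.4 and 35.1 FPKM there, against 0 and 0.0236 FPKM, and Trim43c had 19.3 and 20.2 FPKM, against 0.643 and 0.232 FPKM. Within the Dppa4 arm Trim43b had 76.6 and 53.1 FPKM in m+z+ 2-cell libraries, against 3.84 and 0 FPKM at the 1-cell stage, a log2 change of 4.88 ± 0.69 (limma adjusted p = 8.82e-05). Trim43a had 51.3 and 33.2 FPKM, against 2.88 and 0 FPKM, and Trim43c had 22.1 and 15.2 FPKM, against 1.83 and 0.539 FPKM. The 1-cell values of the Dppa4 arm thus differed between replicates, and the same was seen in its m-z+ embryos, where Trim43b had 3.90 FPKM in replicate 1 and 0 in replicate 2. The sum of 2-cell markers was 28.0 FPKM in that replicate 1 and 7.47 FPKM in replicate 2 of m-z+ embryos, and 20.3 and 17.8 FPKM in replicates 1 and 2 of m+z+ embryos, and its part was not tested. Without replicate 1 of the Dppa4 m+z+ 1-cell libraries the change of Trim43b was 6.02, and without replicate 2 it was 3.74. The 2-cell values were higher than every 1-cell value in all 4 genotypes.

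**Figure D2:**
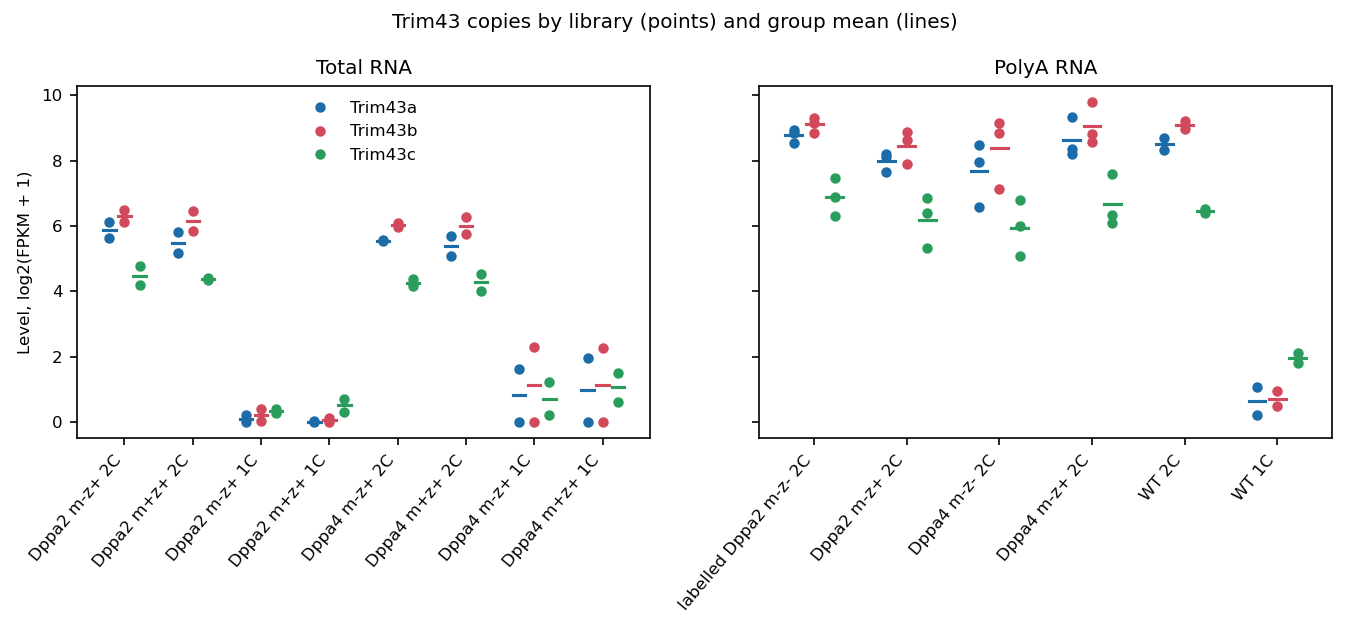
Level of the 3 Trim43 copies, as log2(FPKM + 1), in each library (points) with group means (lines), for total RNA at left and polyA RNA at right. For each copy all 2-cell (2C) libraries lie above all 1-cell (1C) libraries, and the Dppa4-arm 1-cell replicates are split.

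Together the 3 copies took 13.0% to 26.1% of the summed FPKM of all 67 Trim genes in 2-cell total RNA and 32.9% to 77.9% in 2-cell polyA RNA, against at most 0.9% in any 1-cell library. The lowest polyA share, 32.9%, was that of Dppa4 m-z- replicate 1, and the highest, 77.9%, that of Dppa4 m-z+ replicate 1. The promoter of Trim43a, around its start in the RefSeq annotation of GRCm38.p6 (chr9:88580641-88580940, plus strand), is printed as that of a Trim43 copy. Capitals mark GGATTA or its reverse complement TAATCC, letters that Otx-type homeodomain proteins bind. In Trim43a the match starts 42 bases downstream of the annotated start, not upstream of it.
Trim43a promoter: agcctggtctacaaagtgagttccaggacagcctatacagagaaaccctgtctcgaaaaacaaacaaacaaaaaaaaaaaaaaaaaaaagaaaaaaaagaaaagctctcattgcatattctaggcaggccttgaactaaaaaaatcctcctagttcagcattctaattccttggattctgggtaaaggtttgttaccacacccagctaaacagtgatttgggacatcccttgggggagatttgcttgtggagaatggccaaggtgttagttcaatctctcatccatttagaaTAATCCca
GGATTA was found on either strand in 12.1% of 66 promoters listed for 52 of the Trim genes, those of Trim2, Trim6, Trim32, Trim42, Trim43a, Trim66, Trim69 and Trim75, and in 7.1% of all 32851 promoters of the same length. CCAAT was in 45.5% of Trim promoters and 37.4% of all, and TATAAA in 12.1% and 13.6%. Trim75, which went the other way at this step, also held the motif (chr8:64987595-64987894, minus strand), starting 10 bases downstream of its annotated start.
Trim75 promoter: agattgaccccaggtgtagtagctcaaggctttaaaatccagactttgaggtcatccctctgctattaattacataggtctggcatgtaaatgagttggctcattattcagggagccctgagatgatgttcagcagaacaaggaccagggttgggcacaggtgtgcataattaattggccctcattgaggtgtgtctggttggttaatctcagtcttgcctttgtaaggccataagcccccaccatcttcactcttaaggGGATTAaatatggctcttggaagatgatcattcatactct
A match of these letters was thus present in genes that were higher, lower and below 1 FPKM in every library, and the motifs were chosen with sequences in view.

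Trim28, Trim33 and Trim24 are the expressed PHD-bromodomain genes, which carry transcriptional repression and histone reading, and they did not move together. Trim28 had 50.5 and 40.6 FPKM in Dppa2 m+z+ 2-cell libraries, against 10.9 and 17.6 FPKM at the 1-cell stage, a log2 change of 1.64 ± 0.28 (limma adjusted p = 0.000283). In the Dppa4 arm it had 44.5 and 24.9 FPKM in m+z+ 2-cell libraries, against 16.6 and 17.2 FPKM, a change of 0.94 ± 0.28 (limma adjusted p = 0.0152). Among WT polyA libraries it had 34.1 and 12.5 FPKM at the 2-cell stage, against 2.72 and 5.95 FPKM at the 1-cell stage, a change of 2.1 ± 0.58 (limma adjusted p = 0.0128). All 2-cell values were above the 1-cell values of the same comparison. The Dppa4-arm call was lost without replicate 1 or 2 of the 1-cell libraries (0.92 and 0.96) or replicate 1 of the 2-cell libraries (0.53). The WT call was lost without replicate 1 of the 1-cell (1.65) or of the 2-cell libraries (1.41).

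Trim33, which marks Smad proteins with ubiquitin and limits TGF-beta signalling, had 26.6 and 24.2 FPKM in WT 2-cell polyA libraries, against 5.33 and 6.85 FPKM in 1-cell libraries. This change of 1.90 ± 0.43 passed (limma adjusted p = 0.003). In total RNA it had 32.0 and 26.1 FPKM in Dppa2 m+z+ 2-cell libraries, against 14.2 and 16.9 FPKM, and 28.0 and 20.6 FPKM in Dppa4 m+z+ 2-cell libraries, against 17.3 and 14.0 FPKM. These changes of 0.86 ± 0.20 and 0.60 ± 0.20 were smaller, and the second lost its call when replicate 2 of the 1-cell or replicate 1 of the 2-cell libraries was left out (0.46 and 0.38). With FPKM rescaled to the same total neither arm's change of Trim33 passed (0.42 and 0.26). Trim24, a nuclear receptor cofactor, went the other way in total RNA. It had 32.9 and 32.5 FPKM in Dppa2 m+z+ 2-cell libraries, against 120.4 and 117 FPKM at the 1-cell stage, a change of -1.83 ± 0.15 (limma adjusted p = 6.46e-07), and in the Dppa4 arm 40.4 and 52.3 FPKM, against 119.9 and 120.2 FPKM, a change of -1.37 ± 0.15. In WT polyA RNA it had 18.9 and 12.3 FPKM at the 2-cell stage, against 18.5 and 30.4 FPKM at the 1-cell stage, and did not pass (-0.60 ± 0.49, limma adjusted p = 0.41). The polyA groups overlapped and the total RNA groups did not.

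Of 20 partners of Trim28 in repression, listed with earlier results of these data known, 14 passed in each arm of total RNA, 5 higher and 9 lower at the 2-cell stage, and 8 passed in WT polyA RNA, 3 higher and 5 lower. Over all genes 61.6%, 49.1% and 25.9% passed in these comparisons. The median change of the partners was -0.39, -0.57 and 0.10 in the Dppa2 arm, Dppa4 arm and WT embryos, beside 0.06, 0.04 and 0.23 over all genes. Setdb1, the histone methyltransferase that Trim28 recruits, was lower by limma in every one of these comparisons, with -2.46 in the Dppa2 arm, -2.29 in the Dppa4 arm and -2.09 in WT embryos. Zfp57, the KRAB zinc finger protein of imprinted regions, had -2.10, -2.23 and -3.43. Hdac1, a histone deacetylase, was higher in all 3, with 3.42, 3.43 and 5.04.

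Trim25, the ligase that activates the RNA sensor RIG-I, was at or near 0 at the 1-cell stage. It had 8.06 and 5.22 FPKM in WT 2-cell polyA libraries and was listed at 0 in both 1-cell libraries, and limma gave a change of 2.91 ± 0.65 on the log2(FPKM + 1) scale (adjusted p = 0.00305). The filter kept Trim25 through 2-cell libraries alone in both tables. In total RNA it had 13.2 and 8.82 FPKM in Dppa2 m+z+ 2-cell libraries, against 0.0081 and 0.0758 FPKM, and 6.51 and 3.59 FPKM in Dppa4 m+z+ 2-cell libraries, against 0.652 and 0.211 FPKM. The changes were 3.5 ± 0.44 and 2.05 ± 0.44, with limma adjusted p-values of 2.13e-05 and 0.00197. No 1-cell value reached a 2-cell value in any of the 3 comparisons.

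Trim8, a ligase of the cytokine and NF-kappaB pathways, had 26.5 and 17.0 FPKM in Dppa2 m+z+ 2-cell libraries, against 0.408 and 0.818 FPKM at the 1-cell stage, a change of 3.80 ± 0.39 (limma adjusted p = 3.64e-06). Within the Dppa4 arm it had 10.4 and 7.14 FPKM in m+z+ 2-cell libraries, against 0.492 and 0.424 FPKM, a change of 2.72 ± 0.39. In polyA RNA of WT embryos it had 0.944 and 1.22 FPKM at the 2-cell stage, against 0 and 0.0186 FPKM, and did not pass (1.04 ± 0.53, limma adjusted p = 0.168). The stages did not overlap in either kind of RNA. Trim6, known from embryonic stem cells, had 9.87 and 4.39 FPKM in Dppa4 m+z+ 2-cell libraries, against 0.592 and 0.172 FPKM (2.49 ± 0.36, limma adjusted p = 0.000113). Among WT polyA libraries it had 6.41 and 5.69 FPKM at the 2-cell stage, against 1.69 and 0.735 FPKM (1.70 ± 0.60, limma adjusted p = 0.0463), a call that no fit with a library left out kept (1.39 to 2.02). Trim7, which binds glycogenin, had 4.12 and 3.93 FPKM in WT 2-cell libraries and was listed at 0 in both 1-cell libraries (limma 2.33 ± 0.51, adjusted p = 0.00266). Trim7 and Trim8 were kept by 2-cell libraries alone in both tables, and Trim6 in polyA RNA.

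Trim71, the Lin-41 protein that silences mRNAs in stem cells through its NHL repeats, differed between the kinds of RNA. In total RNA it had 14.8 and 12.1 FPKM in Dppa2 m+z+ 2-cell libraries, against 2.97 and 1.91 FPKM at the 1-cell stage, a change of 2.08 ± 0.35 (limma adjusted p = 0.000211). In the Dppa4 arm it had 11.2 and 4.91 FPKM in m+z+ 2-cell libraries, against 3.17 and 2.42 FPKM, a change of 1.17 ± 0.35 (limma adjusted p = 0.0139) that was not called without replicate 2 of the 1-cell (1.02) or replicate 1 of the 2-cell libraries (0.64). In WT polyA RNA it had 3.81 and 2.24 FPKM at the 2-cell stage, against 6.58 and 4.55 FPKM at the 1-cell stage, and did not pass (-0.72 ± 0.55, limma adjusted p = 0.375). The 2-cell values lay above the 1-cell values in total RNA and below them in polyA RNA, and the difference between the tables, which were normalized separately, was not tested. Trim37, a ligase that limits centriole formation, stayed between 8.22 and 25.5 FPKM in all 32 libraries. Its changes of 0.28 ± 0.19, 0.33 ± 0.19 and 0.16 ± 0.43 in the m+z+ embryos of the Dppa2 arm, those of the Dppa4 arm and WT embryos did not pass, and their sign turned with other scalings. In Dppa2 m-z+ embryos a change of 0.55 ± 0.19 passed (limma adjusted p = 0.0269), and with FPKM rescaled to the same total it did not (0.30).

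**Figure D3:**
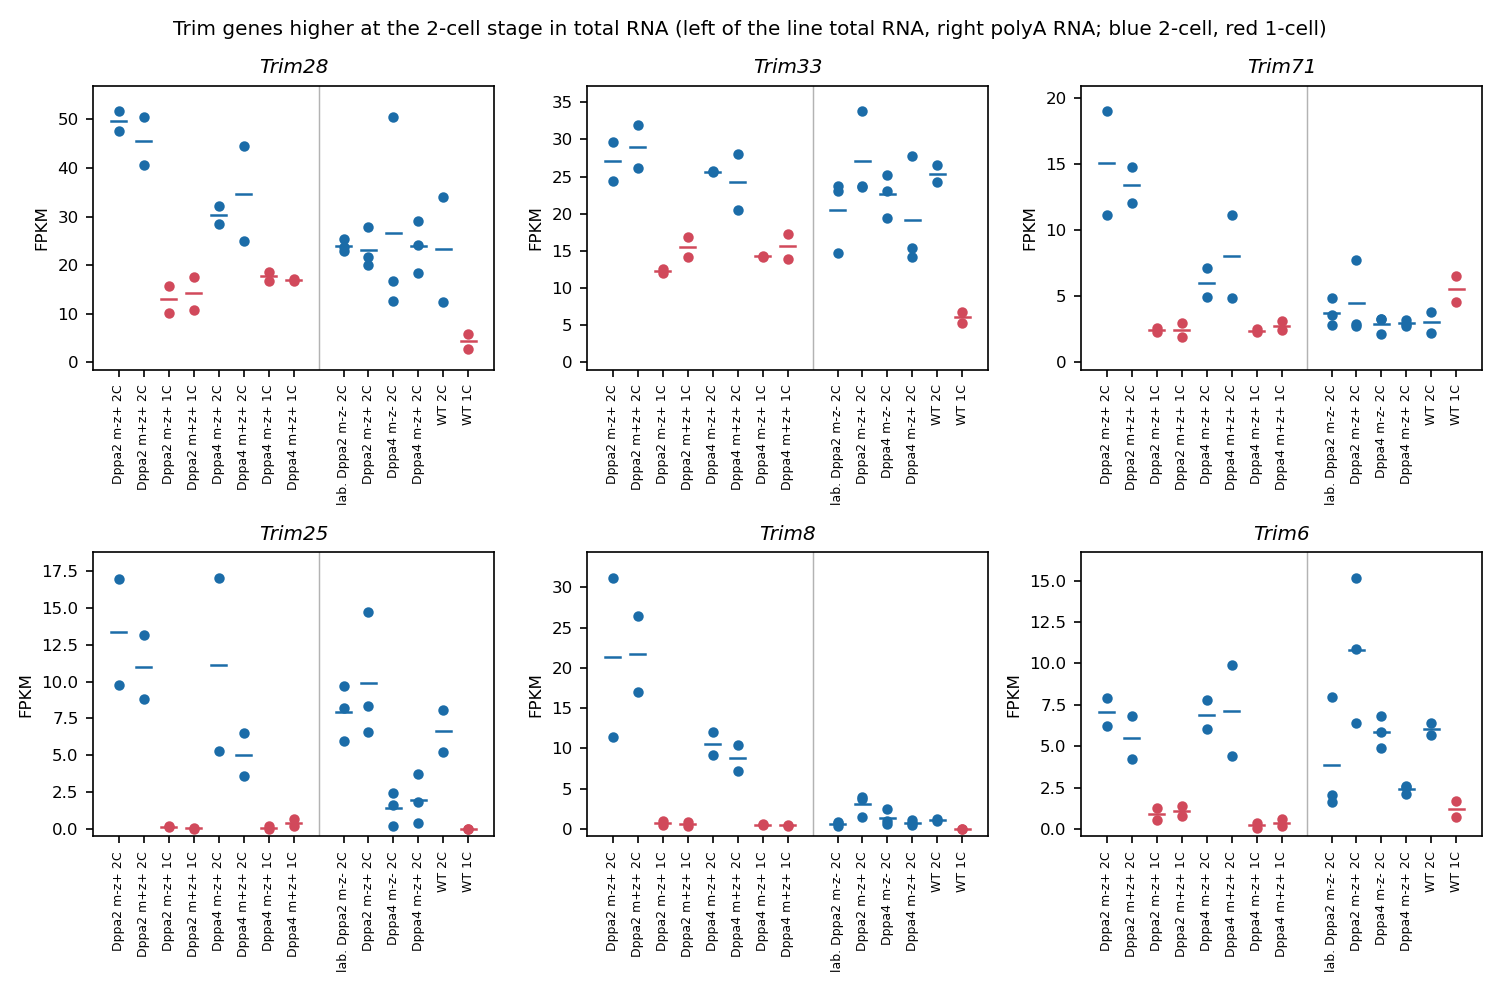
FPKM of 6 Trim genes that were higher at the 2-cell stage in total RNA, 1 point a library and 1 line a group mean, with 2-cell (2C) libraries in blue and 1-cell (1C) libraries in red. Trim28, Trim33, Trim25 and Trim6 were higher in WT polyA RNA as well, while Trim71 had 2.24 and 3.81 FPKM in WT 2-cell embryos, against 4.55 and 6.58 FPKM in WT 1-cell embryos.

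The 1-cell pool of Trim RNA was dominated by a few genes. Trim60 and Trim75, PRY-SPRY neighbours at chr8:64980884-65018584 with 55.9% identity of their coding sequences, made up 42.8% to 47.8% of the summed FPKM of all Trim genes in 1-cell total RNA, and 68.1% to 72.7% together with Trim13 and Trim24. In WT 1-cell polyA RNA Trim60 and Trim75 made up 18.8% and 19.7%, and Trim13 alone had 395 and 364 FPKM of sums of 892.5 and 802.3 FPKM. Of the 50-base windows in the exons of Trim13, 14.2% also occur in another gene, so its level is uncertain to that extent. Trim75 had 119.3 and 94.1 FPKM in Dppa2 m+z+ 2-cell libraries, against 248 and 240.5 FPKM at the 1-cell stage, a change of -1.20 ± 0.19 (limma adjusted p = 0.000138). Within the Dppa4 arm it had 143 and 177 FPKM in m+z+ 2-cell libraries, against 229 and 228 FPKM (-0.52 ± 0.19, limma adjusted p = 0.0371), a call kept only without replicate 2 of the 2-cell libraries (-0.67, and -0.37 without replicate 1) and lost with median-ratio scaling (-0.44). In polyA RNA of WT embryos it had 18.6 and 19.2 FPKM at the 2-cell stage, against 105 and 103 FPKM (-2.40 ± 0.42, limma adjusted p = 0.000366). The stages did not overlap in any of the 3.

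Trim60 had 42.5 and 62.3 FPKM in Dppa2 m+z+ 2-cell libraries, against 220.1 and 207 FPKM at the 1-cell stage (-2.03 ± 0.24, limma adjusted p = 1.08e-05). In the Dppa4 arm it had 82.7 and 142 FPKM, against 196 and 211 FPKM (-0.90 ± 0.24, limma adjusted p = 0.00696), and without replicate 1 of the 2-cell libraries the call was lost at -0.51. Trim13, an endoplasmic reticulum ligase, had 31.4 and 30.9 FPKM in Dppa2 m+z+ 2-cell libraries, against 123.7 and 124 FPKM (-1.96 ± 0.18, limma adjusted p = 1.74e-06). Neither passed in WT polyA RNA, although both were lower at the 2-cell stage in each library, with 19.5 and 24.4 against 62.9 and 55.3 FPKM for Trim60, and 141 and 220.2 against 395 and 364 FPKM for Trim13.

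Trim27, the ret finger protein, and Trim11 were lower in every stage comparison and fit. Trim27 had 10.3 and 8.70 FPKM in Dppa2 m+z+ 2-cell libraries, against 70.4 and 84.1 FPKM at the 1-cell stage (-2.90 ± 0.23, limma adjusted p = 4.44e-07), and 10.2 and 14.0 FPKM in Dppa4 m+z+ 2-cell libraries, against 69.96 and 68.3 FPKM (-2.44 ± 0.23, limma adjusted p = 2.89e-06). Among WT polyA libraries it had 2.67 and 1.07 FPKM at the 2-cell stage, against 30.03 and 36.2 FPKM (-3.62 ± 0.66, limma adjusted p = 0.000551). Trim11 had 3.16 and 1.64 FPKM in Dppa2 m+z+ 2-cell libraries, against 18.98 and 18.7 FPKM (-2.58 ± 0.27), and 2.81 and 2.34 FPKM in Dppa4 m+z+ 2-cell libraries, against 14.6 and 17.5 FPKM (-2.25 ± 0.27). It had 0.156 and 0 FPKM in WT 2-cell polyA libraries, against 2.80 and 5.17 FPKM (-2.17 ± 0.48). The filter kept Trim11 through 1-cell libraries alone in polyA RNA. For both Trim27 and Trim11 the stages were fully apart.

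The rest of the falling genes were less abundant. Trim35 had 1.24 and 0.817 FPKM in Dppa2 m+z+ 2-cell libraries, against 4.46 and 11.3 FPKM at the 1-cell stage (-2.03 ± 0.39), and 2.22 and 2.16 FPKM in Dppa4 m+z+ 2-cell libraries, against 8.18 and 13.7 FPKM (-1.86 ± 0.39). Trim68, a cofactor of the androgen receptor, had 0.683 and 2.14 FPKM in Dppa4 m+z+ 2-cell libraries, against 6.49 and 7.13 FPKM (-1.76 ± 0.28). Trim15, kept in total RNA through 1-cell libraries alone, had 0.613 and 0.542 FPKM there, against 4.71 and 4.56 FPKM (-1.84 ± 0.41). In WT polyA RNA Trim15 had 0 and 5.33 FPKM at the 2-cell stage, against 10.5 and 13.8 FPKM, a call of -2.37 ± 0.76 that was lost without replicate 1 of the 2-cell libraries (-1.04) and without either 1-cell library (-2.55 and -2.19). Trim38, which restrains inflammatory signalling, was listed at 0 in both WT 2-cell libraries and had 4.16 and 3.26 FPKM in 1-cell libraries, a call of -2.23 ± 0.66 that no fit with a library left out kept (-2.37 to -2.09).

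**Figure D4:**
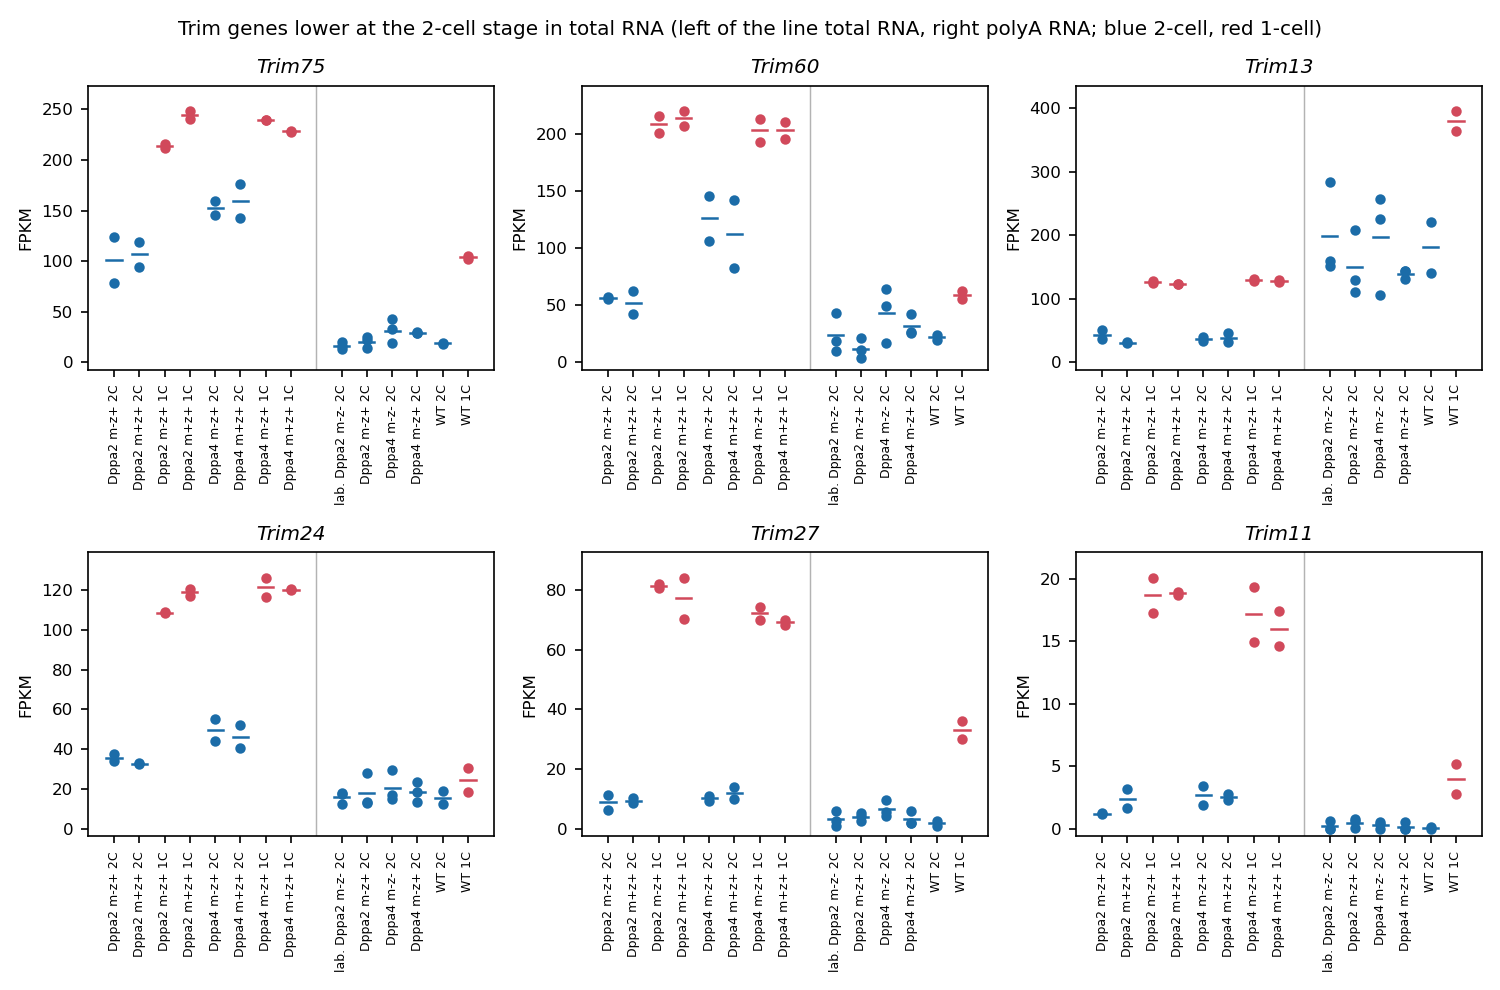
FPKM of 6 Trim genes that were lower at the 2-cell stage in total RNA, 1 point a library and 1 line a group mean, with 2-cell (2C) libraries in blue and 1-cell (1C) libraries in red. Trim75, Trim27 and Trim11 were lower in WT polyA RNA as well, while Trim24 overlapped there, with 12.3 and 18.9 FPKM at the 2-cell stage and 18.5 and 30.4 FPKM at the 1-cell stage.

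Genes that work with Trim proteins were followed by lists that were likewise made with earlier results known. Beside their counts, 31.7% of all genes were higher and 29.9% lower in the Dppa2 arm. The Dppa4 arm had 24.9% higher and 24.2% lower, and WT embryos 17.4% higher and 8.42% lower. Of 12 tripartite relatives with other names, 10 were tested in total RNA, and 2 were higher and 6 lower in the Dppa2 arm, 2 higher and 5 lower in the Dppa4 arm, and 2 higher and 2 lower of 11 in WT polyA RNA. Rfpl4b, a RING and SPRY gene, had changes of 4.89, 5.03 and 8.58, beside 6.08, 4.88 and 8.37 for Trim43b, and Rfpl4, an oocyte gene, had -2.91 and -2.04 in the arms of total RNA. Of 21 ubiquitin-conjugating enzymes, 20 were tested in total RNA, and 5 were higher and 9 lower in the Dppa2 arm, 3 higher and 6 lower in the Dppa4 arm, and 4 higher and 3 lower of 21 in WT embryos. Ube2w, which ubiquitinates protein ends, had -2.20 in the Dppa2 arm, -2.33 in the Dppa4 arm and -2.37 in WT embryos. Of 28 antiviral signalling genes, 21 were tested and 9 were higher and 4 lower in the Dppa2 arm, 5 higher and 6 lower in the Dppa4 arm, and 4 higher and 0 lower in WT embryos. Irf9, a transcription factor of the interferon response, was higher in all 3, with 2.42, 1.31 and 2.27, while Mb21d1, the DNA sensor cGAS, had -3.45 and -2.56 in the arms of total RNA.

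The stage changes of m-z+ embryos had the same direction as those of their controls for each gene that passed in both. In Dppa2 m-z+ embryos 25 of 35 Trim genes passed, 11 higher and 14 lower at the 2-cell stage, where 57.3% of all genes passed (28.8% higher, 28.4% lower), and in Dppa4 m-z+ embryos 25 passed, 12 higher and 13 lower, where 50.3% of all genes passed (25.3% higher, 25.0% lower). With FPKM rescaled to the same total, the Dppa4 m-z+ embryos had 8 higher and 13 lower, and Trim28, Trim33, Trim44, Trim62 and Trim71 no longer passed while Trim67 did. Without replicate 2 of the Dppa4 m-z+ 1-cell libraries 16 passed. Trim43b changed by 6.08 ± 0.69 in Dppa2 m-z+ embryos and 4.88 ± 0.69 in Dppa4 m-z+ embryos. Tested as the difference between the stage change of m-z+ and of m+z+ embryos, no Trim gene passed by limma in either arm, where 0.0% and 0.00664% of all genes passed, and 2 and 0 Trim genes had an unadjusted p below 0.05, beside 8.62% and 1.79% of all genes. Those 2 were Trim7 (-1.05 ± 0.45, limma adjusted p = 0.549) and Trim39 (-0.98 ± 0.43, limma adjusted p = 0.552) in the Dppa2 arm, followed by Trim31 (0.80 ± 0.43, limma adjusted p = 0.648). Trim7 had 0.621 and 1.61 FPKM in Dppa2 m-z+ 2-cell libraries, against 3.74 and 1.37 FPKM in m+z+ libraries, and 0.3004 and 0.329 FPKM in m-z+ 1-cell libraries, against 0.0664 and 0 FPKM. Its 2-cell groups overlapped and its 1-cell groups did not. Trim39 had 7.40 and 5.65 FPKM in m-z+ 2-cell libraries, against 9.14 and 6.53 FPKM in m+z+ libraries, which overlapped. Trim31 had 0.710 and 1.03 FPKM in m-z+ 2-cell libraries, against 0.235 and 0.242 FPKM in m+z+ libraries, and 1.66 and 3.39 FPKM in m-z+ 1-cell libraries, against 2.70 and 3.21 FPKM. Within the Dppa4 arm the smallest p-values were those of Trim25 (1.23 ± 0.62), Trim38 (0.83 ± 0.61) and Trim26 (-0.49 ± 0.36), with limma adjusted p = 1 for each. Trim26 had 6.35 and 7.95 FPKM in m-z+ 2-cell libraries, against 9.10 and 8.39 FPKM in m+z+ libraries, while its 1-cell groups overlapped. At the 1-cell stage Trim25 did not exceed 0.652 FPKM in this arm.

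Between genotypes at 1 stage no Trim gene passed in any of the 8 comparisons. In the Dppa2 arm of total RNA, m-z+ against m+z+ embryos, 0.0398% of all genes passed at the 1-cell stage (0.0133% higher, 0.0265% lower) and 0.186% at the 2-cell stage (0.0664% higher, 0.119% lower), and all 35 Trim genes lay within 1 log2 unit at both stages. An unadjusted p below 0.05 was found for 1 and 4 of the 35 Trim genes, beside 3.05% and 12.8% of all genes. At the 1-cell stage Trim39 had 13.1 and 13.2 FPKM in m-z+ libraries, against 9.02 and 5.98 FPKM in m+z+ libraries (0.76 ± 0.30, limma adjusted p = 1). The groups did not overlap. Trim33 had 12.6 and 12.05 FPKM in m-z+ libraries, against 14.2 and 16.9 FPKM in m+z+ libraries, and Trim32 had 6.30 and 7.21 FPKM, against 9.10 and 8.27 FPKM, and neither passed (limma adjusted p = 1 for each).

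At the 2-cell stage Trim41 had 14.6 and 18.6 FPKM in Dppa2 m-z+ libraries, against 26.3 and 22.4 FPKM in m+z+ libraries (-0.53 ± 0.19, limma adjusted p = 0.262). Trim13 had 50.3 and 36.5 FPKM, against 31.4 and 30.9 FPKM (0.45 ± 0.18, limma adjusted p = 0.321), and Trim11 had 1.24 and 1.16 FPKM, against 3.16 and 1.64 FPKM (-0.59 ± 0.27, limma adjusted p = 0.385). Each of the 3 had groups that did not overlap. The oocyte marker sum was 802 and 814 FPKM in the m-z+ libraries, against 510 and 594 FPKM in the m+z+ libraries, and its part in these values was not tested. Without replicate 2 of the m+z+ 2-cell libraries Trim15 alone passed, with 0 FPKM in both m-z+ libraries and 2.15 and 0 FPKM in the m+z+ libraries. The Trim43 copies had 17.4 to 88.5 FPKM in Dppa2 m-z+ libraries and 19.3 to 87.2 FPKM in m+z+ libraries, and overlapped for each copy.

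In the Dppa4 arm, m-z+ against m+z+ embryos, 0.00664% of all genes passed at the 1-cell stage and 0.0% at the 2-cell stage, and no Trim gene had an unadjusted p below 0.05, beside 1.27% and 2.67% of all genes. The smallest p-values at the 1-cell stage were those of Trim31, with 1.39 and 1.39 FPKM in m-z+ libraries and 2.58 and 2.1 FPKM in m+z+ libraries, of Trim39, with 8.14 and 11.5 FPKM in m-z+ libraries and 7.26 and 6.58 FPKM in m+z+ libraries, and of Trim43c, with 1.33 and 0.151 FPKM in m-z+ libraries and 1.83 and 0.539 FPKM in m+z+ libraries. The first 2 did not overlap and Trim43c did. At the 2-cell stage they were those of Trim25 (0.86 ± 0.44), Trim38 (0.74 ± 0.43) and Trim62 (-0.26 ± 0.22). Trim25 had 5.26 and 17.1 FPKM in m-z+ libraries and 6.51 and 3.59 FPKM in m+z+ libraries, which overlapped. Trim38 had 0.763 and 1.84 FPKM in m-z+ libraries and 0.0772 and 0.669 FPKM in m+z+ libraries, and Trim62 had 2.88 and 3.13 FPKM in m-z+ libraries and 3.49 and 4.10 FPKM in m+z+ libraries, and neither overlapped. All 35 Trim genes lay within 1 log2 unit.

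In polyA RNA of 2-cell embryos 0.0054% of all genes passed between the libraries labelled Dppa2 m-z- and the Dppa2 m-z+ libraries, and 0.0162% between Dppa4 m-z- and m-z+ embryos. Unadjusted p-values below 0.05 were found for 4 of 44 Trim genes in each, beside 7.65% and 7.0% of all genes. Trim6 had 7.95, 2.07 and 1.65 FPKM in the libraries labelled Dppa2 m-z-, against 10.9, 6.40 and 15.2 FPKM in m-z+ libraries (-1.43 ± 0.49, limma adjusted p = 0.574). Trim8 had 0.879, 0.761 and 0.314 FPKM, against 3.71, 1.51 and 3.98 FPKM (-1.25 ± 0.43), and Trim44, a family member without a RING finger, had 5.76, 3.45 and 6.87 FPKM, against 10.6, 15.6 and 20.6 FPKM (-1.38 ± 0.51). The groups overlapped for Trim6 and did not for Trim8 and Trim44. Blood markers summed to 74.6, 110.1 and 1460 FPKM in replicates 1, 2 and 3 of the libraries labelled Dppa2 m-z-, against 57.03 to 133 FPKM in m-z+ libraries, so that replicate 3 alone stood apart. Of the 6, Alas2 was at 0 in every library of that label, and Hbb-bs and Ptprc in replicates 1 and 2. Replicate 3 had 378, 532 and 505 FPKM of the globins Hbb-bs, Hba-a1 and Hba-a2, beside 45.8 FPKM of Cd74 and 0.0122 FPKM of Ptprc. Without that replicate the changes of Trim6, Trim8 and Trim44 were -1.10, -1.10 and -1.55, and none passed.

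Between Dppa4 m-z- and m-z+ embryos, Trim43a had 95.8, 249 and 359.8 FPKM in m-z- embryos, against 648, 331 and 294 FPKM in the m-z+ group (-0.95 ± 0.42, limma adjusted p = 0.694). The groups overlapped, and replicate 1 was the lowest of the m-z- and the highest of the m-z+ embryos. The same replicates were lowest and highest for Trim43b, at 138 FPKM for the m-z- embryo and 890.01 FPKM for the m-z+ embryo. Without replicate 1 of the m-z- embryos the change of Trim43a was -0.41. That embryo also had the lowest sum of 2-cell markers of its group, with 1209 FPKM, against 1944 and 1978 FPKM in the other m-z- embryos, and its part was not tested. Trim12a had 2.85, 1.86 and 0.0043 FPKM in m-z- embryos, against 0.0024, 0.0007 and 0.0645 FPKM in Dppa4 m-z+ ones (1.12 ± 0.46), and Trim62 had 2.32, 2.19 and 0.553 FPKM, against 0.293, 0.612 and 0 FPKM (0.99 ± 0.42). Neither passed (limma adjusted p = 0.694 for each), and both overlapped. In polyA RNA both genes reached 1 FPKM only in m-z- libraries, those labelled Dppa2 m-z- included. The filter thus kept them through the genotype where they were higher, so their p-values add nothing to their values.

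Against WT 2-cell embryos 0.0648% of all genes passed in Dppa4 m-z- embryos (0.0216% higher, 0.0432% lower) and 0.0% in Dppa4 m-z+ embryos, and 7 and 3 of 44 Trim genes had an unadjusted p below 0.05, beside 10.7% and 6.65% of all genes. These comparisons share the WT libraries. Trim25 had 2.44, 0.179 and 1.61 FPKM in m-z- embryos and 1.81, 3.72 and 0.434 FPKM in m-z+ embryos, against 8.06 and 5.22 FPKM in WT embryos. Both mutant groups lay below WT without overlap, with -1.77 ± 0.60 (limma adjusted p = 0.329) in m-z- and -1.49 ± 0.60 (limma adjusted p = 0.692) in m-z+ embryos. In total RNA of the same arm Trim25 had a positive change in m-z+ over m+z+ 2-cell embryos (0.86 ± 0.44). Trim62 had 0 in both WT libraries (1.35 ± 0.47 in m-z- embryos), Trim34a had 0 in all m-z- embryos and 1.43 and 0.766 FPKM in WT (-1.05 ± 0.40), and Trim14 had 0, 0 and 0.782 FPKM in m-z+ embryos, against 3.39 and 1.34 FPKM in WT (-1.40 ± 0.55). The filter kept Trim62 through m-z- libraries alone, so its p-value adds nothing to its values. Trim34a reached 1 FPKM only in a WT 2-cell library and a library labelled Dppa2 m-z-. Trim14 shares 1356 exon bases with Nans on the opposite strand, which polyA libraries do not separate. Trim38 had 0, 2.78 and 2.78 FPKM in m-z+ embryos and was listed at 0 in WT embryos (1.28 ± 0.60).

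**Figure D5:**
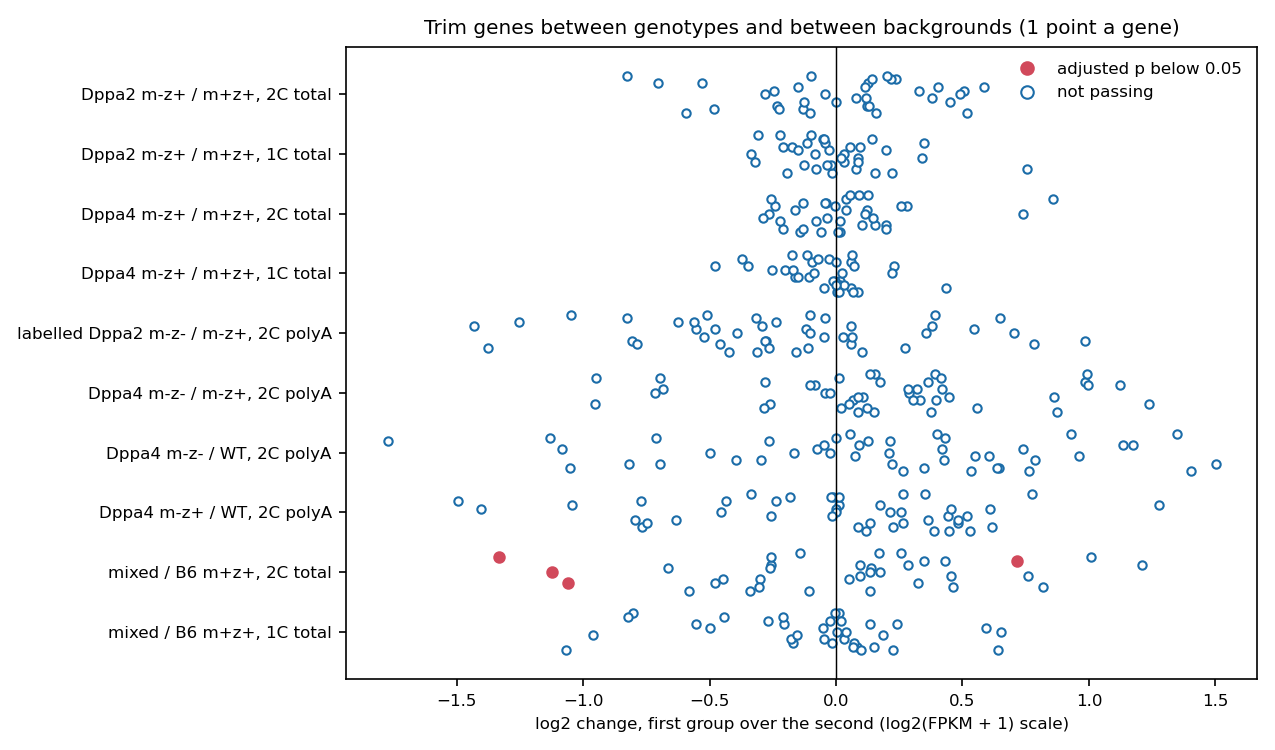
Log2 change of each tested Trim gene between genotypes and between backgrounds on the log2(FPKM + 1) scale, named group over its reference, 1 point a gene. The 4 filled points, in mixed over B6 2-cell controls, passed in limma, and no point between genotypes did.

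Control embryos of the mixed B6/DBA background differed from B6 controls in 4 of 35 Trim genes at the 2-cell stage, 1 higher and 3 lower, where 9.13% of all genes passed (4.5% higher, 4.63% lower), and in none at the 1-cell stage, where 1.01% passed and 3 Trim genes had an unadjusted p below 0.05, beside 7.74% of all genes. The share of 11.4% is near that of all genes. With FPKM rescaled to the same total, 0 were higher and 4 lower, Trim24 passing in place of Trim41. Trim62, a ligase linked to epithelial polarity, had 0.836 and 0.968 FPKM in mixed 2-cell controls, against 3.49 and 4.10 FPKM in B6 controls (-1.33 ± 0.22, limma adjusted p = 0.00501). In total RNA Trim62 reached 1 FPKM in every B6 library, and on the mixed background only in an m-z+ 2-cell library (1.32 FPKM). The filter thus kept Trim62 through B6 libraries, where it was higher, so this call adds nothing to its values. At the 1-cell stage it had 0.628 and 0.511 FPKM in mixed controls, against 1.91 and 1.64 FPKM in B6 controls (-0.82 ± 0.22, limma adjusted p = 0.126). The contrast did not use the means of the m-z+ embryos, but their libraries entered its spread and the filter. These m-z+ embryos had 0.448 to 1.32 FPKM of Trim62 on the mixed background, against 1.54 to 3.13 FPKM on B6. All mixed total RNA libraries therefore lay below all B6 total RNA libraries, whereas in polyA RNA the 6 Dppa2-arm libraries, with 0 to 1.08 FPKM, overlapped the B6 libraries, with 0 to 2.32 FPKM.

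Trim60 had 42.5 and 62.3 FPKM in mixed 2-cell controls, against 82.7 and 142 FPKM in B6 controls (-1.06 ± 0.24, limma adjusted p = 0.0192), and 57.02 and 55.7 FPKM in mixed m-z+ embryos, against 146 and 107 FPKM in B6 m-z+ embryos. Trim26 had 2.65 and 4.47 FPKM in mixed controls, against 9.10 and 8.39 FPKM in B6 controls (-1.12 ± 0.26, limma adjusted p = 0.0217). Trim41 had 26.3 and 22.4 FPKM in mixed controls, against 15.7 and 13.2 FPKM in B6 controls (0.71 ± 0.19, limma adjusted p = 0.0372), and its m-z+ embryos overlapped, with 14.6 and 18.6 FPKM on the mixed background and 15.3 and 12.7 FPKM on B6. Oocyte markers were lower in the same mixed 2-cell controls, 5 of 8 by limma, with sums of 510 to 594 FPKM, against 908 to 1246 FPKM in B6 controls, and their part was not tested. None of the 4 calls remained without replicate 2 of the B6 2-cell controls or in a fit of the compared groups alone. Without replicate 1 of the mixed 2-cell controls Trim62 alone passed, and without replicate 1 of the B6 2-cell controls Trim24, Trim71 and Trim75 were added.

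At the 1-cell stage the smallest p-values after Trim62 were those of Trim30a, with 3.59 and 2.66 FPKM in mixed controls and 1.35 and 1.95 FPKM in B6 controls (0.64 ± 0.26, limma adjusted p = 0.499), and Trim59, with 16.7 and 42.3 FPKM in mixed controls and 48.7 and 45.96 FPKM in B6 controls (-0.80 ± 0.35, limma adjusted p = 0.574). Neither overlapped. Trim63, the muscle ligase MuRF1, was chosen after its values were seen and lay under the filter. It was listed at 0 in all 8 mixed total RNA libraries and had up to 0.503 FPKM in the B6 ones, of which 7 of 8 were above 0. PolyA RNA did not follow this split, with its highest value, 1.47 FPKM, in a Dppa2 m-z+ library.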

How the data were processed

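FPKM values deposited by the authors were used, from 16 total RNA and 16 polyA libraries. Per the submitters' processing notes the authors used HISAT2 2.1.0, StringTie 1.3.3b and mm10. The gene annotation, any filter and how strand was counted were not stated there. Per the labels' protocols the total RNA kit is stranded and the polyA kit is not. FPKM totals differed between libraries (412115 to 629583 in total RNA, 539978 to 675241 in polyA RNA), counts are not part of these tables, and depth and counting error are unknown.

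A gene was tested if it reached 1 FPKM in 2 or more libraries of its table, which kept 15068 in total RNA and 18506 in polyA RNA. log2(FPKM + 1) of all 16 libraries of a table entered 1 linear model of group means, with trend and robust moderation by limma 3.58.1 under R 4.3.3 and with statmod 1.5.0. Two-sided p-values were adjusted by Benjamini-Hochberg over all genes tested, with a threshold of 0.05. Fold changes of low genes are understated on this scale. Errors are limma standard errors. The fit was also run on simulated data with independent noise in each library, for comparisons of a pair of groups. The outcome is not given here, and the differences between stage changes were not simulated.

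The Trim genes, partner lists and tests were chosen with earlier results of these data known. Per-library values were given for up to 5 passing genes of largest rise and of largest fall in the WT and m+z+ stage comparisons, for genes passing between genotypes or backgrounds (or the 3 of smallest p), and for Trim21, Trim24, Trim25, Trim28, Trim33, Trim37, Trim43a, Trim43b, Trim43c, Trim66 and Trim71. Partner genes were named from the up to 4 of largest change that passed. Alternatives were a pseudocount of 0.1, no filter, TPM and median-ratio scaling, the compared groups alone, the replicate number as a block, and leaving out each library. Gene positions come from GENCODE M21 (98.0% of identifiers matched), promoters from RefSeq on GRCm38.p6.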

Additional observations from a re-analysis of the deposited data

How the results depend on the processing

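No Trim gene that passed changed sign under another pseudocount, filter, scaling, block or choice of groups. Scaling FPKM to the same total in every library moved the median change of all genes to -0.30 in the Dppa2 and -0.24 in the Dppa4 m+z+ stage comparison. The change of Trim37, which passed in Dppa2 m-z+ embryos but in neither arm's controls nor in WT embryos, then turned to -0.17, -0.015 and -0.053 in the Dppa2 arm, the Dppa4 arm and WT embryos, and in WT embryos it was -0.21 with median-ratio scaling and -0.061 to 0.375 with a library left out, the lowest without replicate 2 of the 1-cell libraries. The number of Trim genes passing between mixed and B6 2-cell controls was 2 without the filter and 0 with the compared groups alone, against 4. Leaving out 1 library gave 0 to 7 there, 9 to 12 for the WT stage comparison (15 with all), 16 to 18 for the Dppa4 m-z+ stage comparison (25 with all) and 0 to 1 for Dppa2 m-z+ against m+z+ 2-cell embryos. The change of Trim43c between Dppa4 m-z+ and m+z+ 1-cell embryos ran from -0.86 to 0.16 with a library left out, and was positive without replicate 1 of m+z+ (0.09) and without replicate 2 of m-z+ (0.16). Fewer libraries were fitted in these, and the cause was otherwise not tested. Over all genes tested, same-numbered libraries deviated together little (r of -0.143 to 0.139 in total RNA, -0.183 to 0.122 in polyA RNA). In the Dppa4-arm 1-cell libraries, where this r was 0.125, the Trim43 copies were higher in replicate 1 in both genotypes. Trim43b had 3.84 and 0 FPKM in replicates 1 and 2 of m+z+ embryos there, and 3.90 and 0 FPKM in those of m-z+ embryos. With the replicate number as a block, 28, 22, 25 and 24 Trim genes passed in the Dppa2 m+z+, Dppa4 m+z+, Dppa2 m-z+ and Dppa4 m-z+ stage comparisons, 13 in WT embryos, 4 between backgrounds at the 2-cell stage and 0 between genotypes. Depth is unknown, so values below 1 FPKM cannot be told from absence.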
